A study of Xenopus laevis with 3 samples.

Results

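Wnt pathway genes of the *Xenopus laevis* larval inner ear were described on the 3 *s50* arrays, by ligand, receptor, inhibitor and transducer. Members were taken by name. A probe set (Xl-PSID) belonged if the platform's annotation gave it a single gene symbol that begins with the name of a Wnt ligand, receptor, regulator, transducer or nuclear partner. This gave 121 of the 15505 Xl-PSIDs with a single symbol, out of 32635 on the array. Homeologs are the gene copies on the long (L) and short (S) chromosomes of this allotetraploid frog. With homeologs joined, the members stood for 66 of 9242 genes. The symbols carried .L on 58 Xl-PSIDs, .S on 58 and neither on 5.

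All *s50* animals were larvae of stages 50 to 52, aged 15 to 21 days, with no treatment and no genetic change given in the labels. Each array measured RNA from the inner ears of a pool of larvae, 15 on s50_1, 38 on s50_2 and 24 on s50_3. Labelling used 1, 1 and 0.7 µg of total RNA. Values are GCRMA intensities on a log2 scale, where a difference of 1 is a doubling of signal. The design holds a single condition, so there was no test between groups, and the SD over 3 pools is the error throughout.

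Wnt proteins are secreted lipid-modified ligands. In the canonical branch they bind Frizzled receptors with LRP5 or LRP6, which stops a complex of Axin, APC, GSK3 and casein kinase 1 from marking β-catenin for destruction, and β-catenin then acts with TCF and LEF factors on target genes. Other branches act through ROR2, RYK and planar cell polarity proteins. In vertebrate ears, Wnt signals are known for their part in sizing the otic placode, in patterning the vesicle and in orienting hair bundles.

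Of the 66 genes, 47 (71.2%) were detected, against 80.6% of all genes. Detection means a mean of at least 4, the intensity that the study's methods ask of an upregulated Xl-PSID, and a gene was represented by its brightest one. Counted by Xl-PSID, 79 of 121 (65.3%) were detected, against 73.3% of all with a single symbol. The median of the members was 7.80, against 8.78. Of the 42 Xl-PSIDs not detected, 35 were below 4 on every array. The floor was given by 36 control Xl-PSIDs for genes of *Bacillus subtilis*, which lay between 1.83 and 2.17. On no array did 23 members exceed the brightest of these controls, which is 19.0% of them, against 15.0% of all Xl-PSIDs with a symbol. Values at the floor have no order. Intensity depends on the probes as well as on the transcript, so levels of different genes are set out below as signals and not as ranks of abundance.

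Genes known from the inner ear were among those detected, although 80.6% of all genes passed the same threshold. Of 14 measured regulators of otic epithelium, 13 were detected, and *pax8* was not (1.95 ± 0.02). Of 18 genes listed for supporting cells and otoconia, 9 were measured and 7 were detected. They include *tubb3*, a tubulin gene better known from neurons. Of 20 hair cell genes listed, 4 were measured. All 4 were detected, among them *myo6* (12.65 ± 0.44). Genes of other tissues were detected as well, with 12 of 13 neuronal, 14 of 16 skeletal muscle, 8 of 8 cartilage, 10 of 12 erythroid and 6 of 10 epidermal genes above the threshold. In such bulk tissue, fewer cells of a type and less RNA per cell cannot be told apart.

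Ligands were the role with the smallest share of detected genes, 4 of 12 (33.3%), against 80.6% of all genes. For *wnt7b*, known from lung development, the intensity was 8.97, 8.19 and 9.61 on s50_1, s50_2 and s50_3, a mean of 8.92 ± 0.71. Its second Xl-PSID had 7.01, 7.71 and 8.68, and s50_3 was the highest array for both. Both carry the same cluster number in their identifiers and are not independent. *wnt5a*, a ligand of the noncanonical branch that in mice guides extension of the cochlea, was measured by 3 Xl-PSIDs. They had 8.64, 6.75 and 8.04, then 8.56, 6.0 and 7.74, then 8.24, 5.72 and 8.06. The order of the arrays was the same for all of them, with s50_2 lowest, although the ones set first and last carry the same cluster number in their identifiers and are not independent. *wnt4*, known from kidney development, had 6.40, 5.96 and 4.25. *wnt11* had 5.70, 5.08 and 4.33. Both stayed above the threshold on every array, and both were lowest on s50_3.

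The other 8 ligand genes were not detected. *wnt3a*, a canonical ligand, passed 4 on s50_1 alone, with 4.25, 3.02 and 3.48. *wnt5b* had 2.22, 2.75 and 2.80. *wnt6*, *wnt2b*, *wnt8b*, *wnt8a*, *wnt11b* and *wnt1* lay between 1.91 and 2.11 as means. *wnt11b* and *wnt8a* are best known from the axis of the early *Xenopus* embryo, and *wnt1* from the midbrain. Both genes for the release of ligands were detected. *wls*, the carrier that takes Wnt proteins to the cell surface, had 13.54, 13.28 and 13.09 (mean 13.30 ± 0.22), and *porcn*, the enzyme that adds the lipid, had 10.13, 9.93 and 11.23.

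Among the receptors, 8 of 13 genes were detected (61.5%), against 80.6% of all genes. Of the 9 Frizzled genes measured, 5 were detected. *fzd2* had 13.83, 13.80 and 13.28. *fzd3*, which in mice orients hair bundles together with *fzd6*, had 13.19, 12.96 and 12.68, and *fzd8* had 12.89, 12.97 and 12.57. *fzd7* had 11.31, 11.18 and 9.65 on its brightest Xl-PSID, and *fzd10* had 7.20, 7.34 and 7.78. On these brightest Xl-PSIDs, s50_3 was the lowest array for the first 4 genes and the highest for *fzd10*. Another detected Xl-PSID of *fzd8* had 10.16, 10.16 and 10.59, highest on s50_3, and the remaining detected ones were lowest there. By contrast, *fzd1* (2.83 ± 0.39), *fzd6* (2.60 ± 0.08), *fzd4* (2.0 ± 0.01) and *fzd5* (1.96 ± 0.02) were not detected.

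Of the coreceptors, *lrp5* had 10.76, 10.55 and 9.92, while *lrp6* was below 3 on every array with both of its Xl-PSIDs (2.62 ± 0.27 and 2.55 ± 0.02). The receptors for noncanonical ligands were detected, *ror2* with 10.78, 10.73 and 9.21 and *ryk* with 8.92, 8.62 and 8.68. R-spondins strengthen Wnt signals by binding LGR proteins and removing the ligases ZNRF3 and RNF43, which break down Frizzled. Of the members of this axis, *rspo2* had 11.47, 11.43 and 10.99. *znrf3* lay at the threshold with 4.60, 4.26 and 3.77, and *lgr4* was at the floor (1.82 ± 0.01).

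Secreted and membrane inhibitors were detected in 10 of 12 genes (83.3%), near the 80.6% of all genes. *sfrp1*, a secreted protein with a Frizzled-like domain that binds Wnt, had the highest intensity of all members, with 14.68, 14.73 and 14.87 on one Xl-PSID and 14.60, 14.56 and 14.80 on the other. *frzb*, of the same family, had 14.27, 14.26 and 14.21. On these Xl-PSIDs the arrays lay close together. The S Xl-PSID of *frzb* had 11.96, 12.49 and 12.29, and one without a homeolog had 8.90, 9.56 and 9.26. *sfrp5* had 12.61, 12.81 and 12.39, and *sfrp2* had 12.46, 12.52 and 11.75, both with s50_3 lowest. The L Xl-PSID of *sfrp5* had 9.17, 8.50 and 9.05, lowest on s50_2. *sfrpx* had a mean of 7.70 ± 0.05. *frzb2*, which in the *Xenopus* embryo is made in the organizer, was not detected (2.30 ± 0.15 and 1.95 ± 0.03).

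The Wnt-binding protein gene *wif1* had 9.27, 9.85 and 8.35. The Dickkopf proteins block LRP5 and LRP6 with the help of Kremen. Of their genes, *dkk2* was above the threshold on every array, while *dkk1* and *dkk3* had means near it. *dkk2* had 5.74, 7.41 and 6.84, *dkk1* had 3.41, 4.33 and 4.41, and *dkk3*, a divergent member, had 4.61, 2.56 and 2.60. *dkk1* therefore counted as detected by 0.05 only, and *dkk3* passed 4 on s50_1 alone. The Kremen genes were above the threshold on every array, *kremen1* with 8.21, 8.06 and 8.32 and *kremen2* with 6.52, 8.04 and 8.24.

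**Figure D1:**
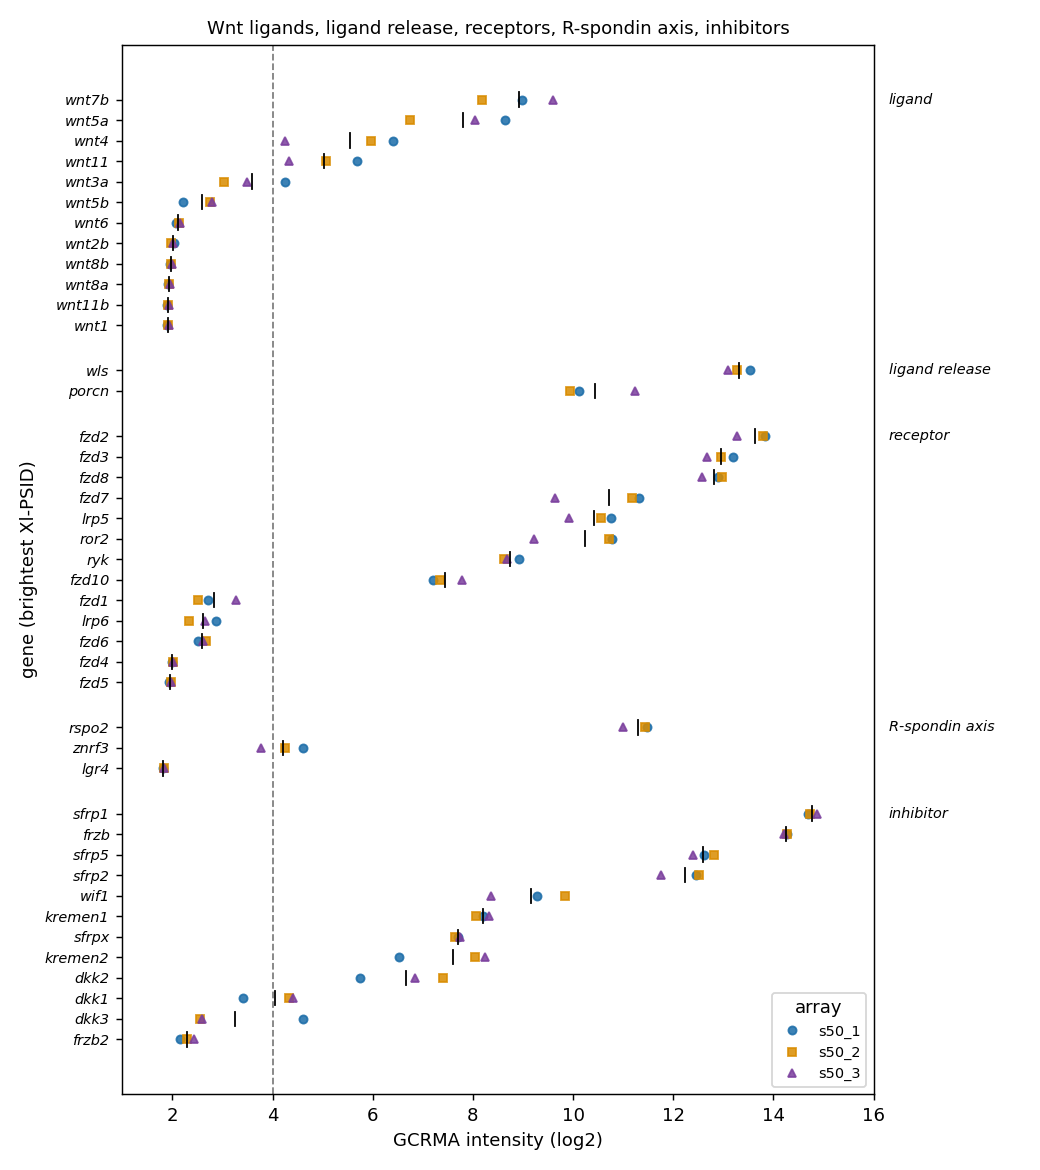
Intensity (log2, horizontal axis) of Wnt ligand, ligand release, receptor, R-spondin axis and inhibitor genes on s50_1 (circles), s50_2 (squares) and s50_3 (triangles), with the mean as a vertical bar and the detection threshold of 4 as a dashed line. Ligands lie at or below 9.61, while *sfrp1* and *frzb* lie above 14 on every array and receptors fall on both sides of the threshold.

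Of the cytoplasmic transducers, 12 of 15 genes were detected (80.0%), near the 80.6% of all genes. *ctnnb1*, β-catenin itself, had 14.06, 14.12 and 13.96 on its brightest Xl-PSID. *csnk1a1*, the casein kinase that primes β-catenin for GSK3, had 14.12, 14.08 and 13.59. The Dishevelled genes, which carry the signal from Frizzled, had small spreads, with 12.50, 12.24 and 12.08 for *dvl1*, 11.54, 11.32 and 11.71 for *dvl2*, and a mean of 10.89 ± 0.19 for *dvl3*. *axin2*, a scaffold of the destruction complex and also a target of the pathway in many tissues, had 11.19, 10.49 and 11.02. A further casein kinase 1 gene, *csnk1d*, had 11.25, 11.40 and 11.74, and *csnk1g3*, *csnk1g1* and *csnk1g2* had means between 9.26 and 10.92. *frat1*, which binds GSK3, had 11.06, 9.44 and 8.71.

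Other genes of the destruction complex were low. *apc* had 6.11 on s50_1 but 3.83 and 3.93 on s50_2 and s50_3, so it counted as detected through s50_1 alone. With at least 4 asked of every array, 11 transducer genes were detected. *gsk3b* had 3.73, 3.67 and 4.21 and was not detected. *gsk3a* had 1.95 ± 0.02 and 1.83 ± 0.01 on its Xl-PSIDs, and *axin1* had 1.92 ± 0.02 and 1.83 ± 0.01. These genes are used by most cells, and a value at the floor says only that these probes gave no signal above the controls.

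All of the 8 nuclear factor genes were detected, against 80.6% of all genes. *tle5*, a short member of the Groucho family, had 14.17, 14.11 and 13.96. *tcf7l1*, which acts mostly as a repressor, had 13.43, 13.45 and 13.00, and *tcf7l2* had 12.15, 11.89 and 12.48. *tcf7* had a mean of 8.45 ± 0.04, and *lef1*, mostly an activator, had 10.27, 8.09 and 8.27, with s50_1 apart from the other arrays. The corepressor gene *tle2* had 10.13, 10.58 and 11.41, with s50_3 highest, and *tle4* had a mean of 10.18 ± 0.81. *ctnnbip1*, which keeps β-catenin from binding TCF, had 10.95, 10.86 and 8.91, lowest on s50_3. The name rule also took *ctnnbl1*, a splicing protein outside the pathway, which had 10.58, 11.07 and 11.24.

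**Figure D2:**
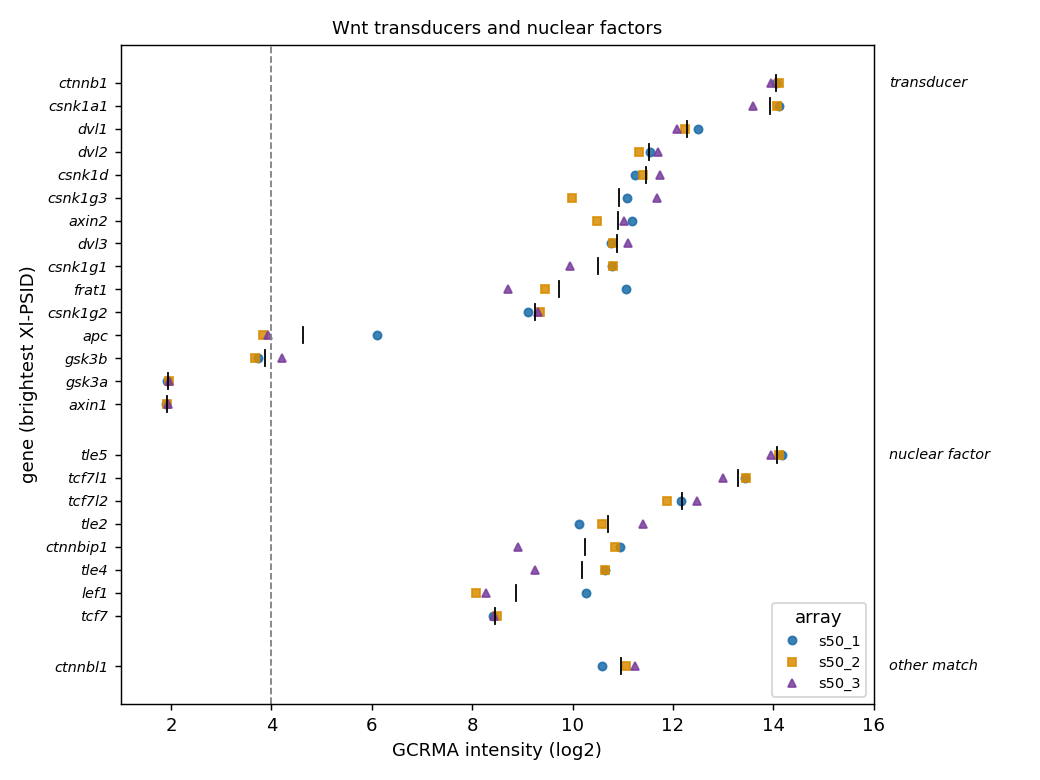
Intensity (log2, horizontal axis) of Wnt transducer and nuclear factor genes, and of *ctnnbl1*, on s50_1 (circles), s50_2 (squares) and s50_3 (triangles), with the mean as a vertical bar and the threshold of 4 as a dashed line. All 8 nuclear factors lie above 8 on every array, whereas *gsk3a* and *axin1* lie at the floor and *apc* is above 4 on s50_1 alone.

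Xl-PSIDs of the same gene often disagreed. Of 33 member genes with several Xl-PSIDs, 12 (36.4%) had them on both sides of the threshold, against 32.6% of all such genes. The median difference between the brightest and the dimmest was 3.69 for members, against 2.61 for all genes. Homeologs are joined in these counts, so some differences lie between L and S, as in *sfrp5* and *tcf7l1*. With L and S counted apart, 11 members had Xl-PSIDs on both sides of the threshold. The matching share of all genes was not computed. *fzd7* had 5 Xl-PSIDs with means of 10.71, 8.63, 3.41, 2.90 and 1.96, all for its L homeolog. *tcf7l2* had 5 with means of 12.17, 9.38, 8.94, 3.64 and 1.92. For *frat1* the means were 9.73 and 1.86, and for *csnk1d* they were 11.46, 10.16 and 2.10. In *csnk1g1* and *csnk1g3* the dimmest lay at 3.09 and 2.87, with 10.51 and 10.92 for the brightest. The dimmest Xl-PSID of *wif1*, *tcf7*, *sfrpx* and *fzd10* was also below 3, with 2.50, 2.76, 1.95 and 2.08, and *dkk1* had 4.05 and 3.68.

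Control Xl-PSIDs at the ends of the same transcript also differed. The one near the 3′ end of actin had 14.70, 14.71 and 14.68, while that near its 5′ end had 1.98, 2.0 and 2.0. The 3′ signal exceeded the 5′ signal by 3.24, 5.18 and 3.15 for the elongation factor control and by 1.19, 2.06 and 1.64 for *gapdh*, so actin had the widest gap of the 3. Where along their transcripts the members' probes lie was not examined, and the part of position in these differences was not tested. A gene with a single Xl-PSID at the floor, as for *fzd4*, *fzd5*, *lgr4* and *wnt1*, has no second measurement here.

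**Figure D3:**
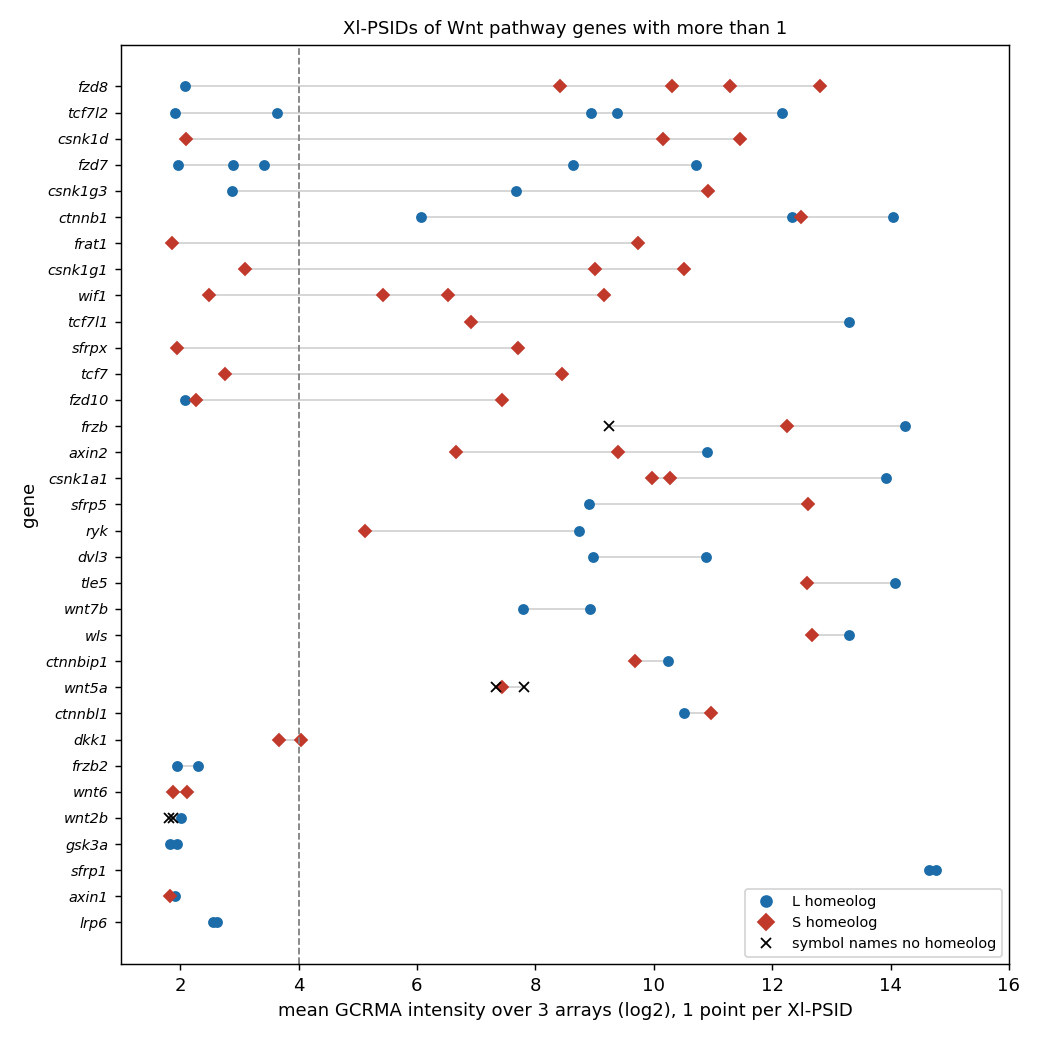
Mean intensity over 3 arrays (log2, horizontal axis) of every Xl-PSID of the 33 Wnt pathway genes that have more than 1, with L homeologs as circles, S homeologs as diamonds and symbols without a homeolog as crosses. Genes are sorted by the difference between brightest and dimmest, from 10.72 for *fzd8* to 0.07 for *lrp6*, and the dashed line is the threshold of 4.

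For 15 genes both homeologs were measured. *fzd8* had 2.09 ± 0.12 for L, and its 4 Xl-PSIDs for S lay between 8.42 and 12.81. *fzd10* had 2.08 ± 0.02 for L and 7.44 ± 0.30 for the brighter S, while its other S Xl-PSID had 2.27 ± 0.06. In *tcf7l1* the L Xl-PSID had 13.29 ± 0.25 and the S Xl-PSID 6.92 ± 0.90. *sfrp5* had 8.91 ± 0.36 for L and 12.60 ± 0.21 for S. Both homeologs were bright in *ctnnb1* (14.05 ± 0.08 for L, 12.48 ± 0.09 for S), *tle5* (14.08 ± 0.11 and 12.58 ± 0.19) and *wls* (13.30 ± 0.22 and 12.68 ± 0.30). Different probes measured each homeolog, and near-identical copies may share probes, so these values give no ratio of L to S transcripts.

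A range of 1.5 or more over the arrays was seen in 25 of the 79 detected members (31.6%), against 24.8% of all detected Xl-PSIDs with a symbol. Of the 47 detected genes, 11 had such a range on their brightest Xl-PSID (23.40%, against 21.98% of all detected genes). The median SD of detected members was 0.42, against 0.47. Transducers held 10 of the 25, out of 23 detected transducer Xl-PSIDs. Ligands held 5, out of 7, and the 3 of *wnt5a* are among them. At means between 6 and 8 the count was 11 of 13 members, against 45.8% of all Xl-PSIDs in that interval, and 3 of the 13 belong to *wnt5a*. At means between 4 and 6 it was 3 of 7, against 55.4%, and between 8 and 10 it was 5 of 19, against 30.5%. Between 10 and 12 it was 5 of 20, against 14.6%, and between 12 and 16 it was 1 of 20, against 3.49%. Without s50_1, 13 of 78 detected members had such a range (16.7%, against 10.7% of all). Without s50_2, 21 of 79 had it (26.6%, against 20.1%), and without s50_3, 12 of 79 (15.2%, against 8.73%). A range over fewer arrays cannot be larger, so some fall is built in.

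The widest ranges were in *fzd7* and *ctnnb1*. An Xl-PSID for *fzd7* with 3.93 on s50_3 had 11.87 and 10.10 on the other arrays, a range of 7.94, while the brightest for that gene had a range of 1.67. For *ctnnb1* the L homeolog had 8.97, 6.54 and 2.72 on one Xl-PSID and 13.80, 13.25 and 9.96 on another. Its brightest L and its S Xl-PSID had ranges of 0.16 and 0.17. Both Xl-PSIDs for the S homeolog of *csnk1a1* fell on s50_3 as well, with 11.63, 11.04 and 8.16 and with 11.31, 10.70 and 7.92. They carry the same cluster number in their identifiers and are not independent. The Xl-PSID of the L homeolog had a range of 0.53. The S homeolog of *ryk* had 6.71, 4.84 and 3.82, against a range of 0.30 for L. In *ctnnb1*, *csnk1a1* and *ryk* some Xl-PSIDs of the gene had a wide range and others did not, while both detected Xl-PSIDs of *fzd7* passed 1.5.

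**Figure D4:**
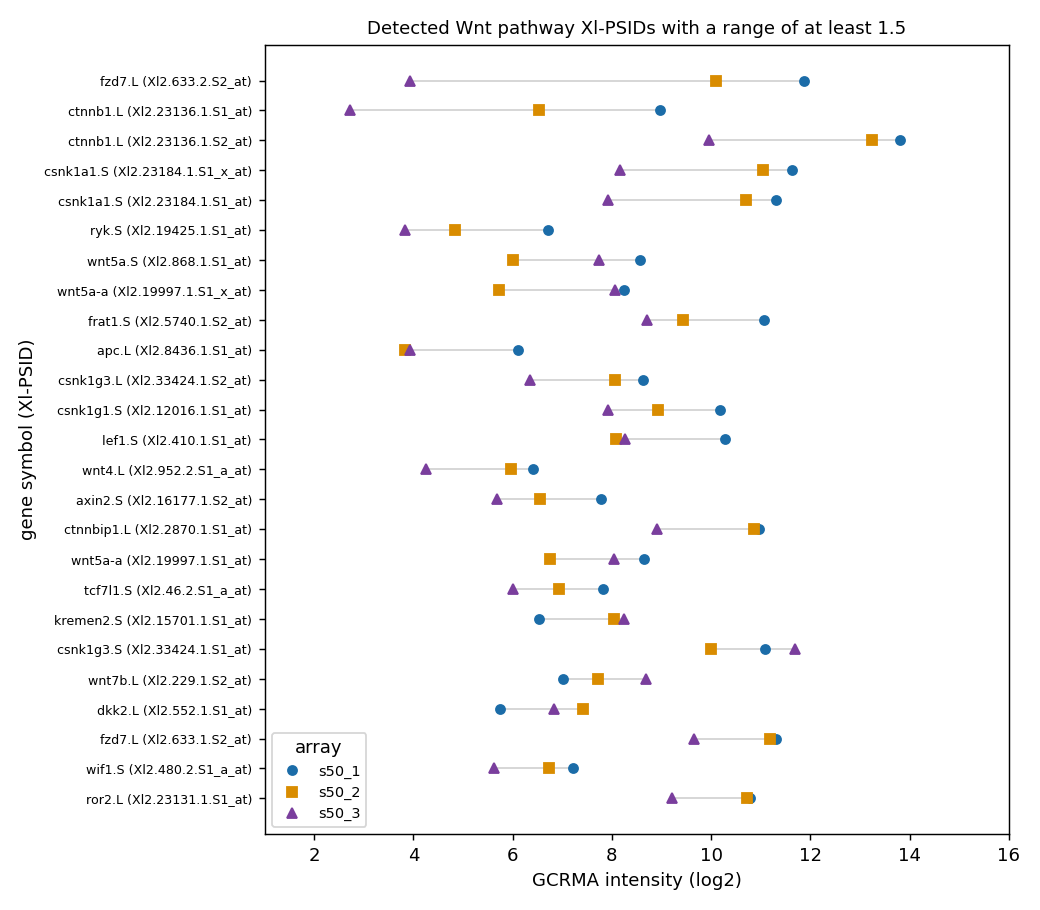
Intensity (log2, horizontal axis) on s50_1 (circles), s50_2 (squares) and s50_3 (triangles) of the 25 detected Wnt pathway Xl-PSIDs that varied by 1.5 or more, sorted by range. The lowest value is on s50_3 for the first 6, and on s50_2 for the 3 of *wnt5a*.

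Detected members were more often high on s50_1 and low on s50_3 than Xl-PSIDs at large. Of 79, 40 (50.6%) peaked on s50_1, 17 (21.5%) peaked on s50_2 and 22 (27.8%) peaked on s50_3, against 31.7%, 25.1% and 43.3% of all detected. Highest on s50_1 and lowest on s50_3 were 30 (38.0%), against 22.6%. These included *rspo2*, *wnt4*, *wnt11*, *fzd2*, *fzd3*, *lrp5* and *ror2*. Of the 30, 10 were transducers, a role that held 23 of the 79 detected members. On s50_3, 13 members were under the mean of the remaining arrays by 1.5 or more (16.5%, against 8.70%) and 0 lay as far above it (against 4.38%). On s50_1, 12 lay as far above (15.2%, against 6.99%) and 1, for *kremen2*, below (1.27%, against 4.95%). On s50_2, the 3 of *wnt5a* lay below (3.80%, against 2.17%) and 1 of *fzd7* above (1.27%, against 2.16%).

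Some of these Xl-PSIDs reached 4 as a mean but not on every array. With at least 4 asked of every array, 73 members counted as detected. Among them, 26 were highest on s50_1 and lowest on s50_3. By the same margin of 1.5, 10 were low on s50_3 and 8 were high on s50_1. The matching shares of all Xl-PSIDs were not computed. Several of the Xl-PSIDs counted here share a gene. With the brightest Xl-PSID alone for each of the 47 detected genes, 16 (34.0%) were highest on s50_1 and lowest on s50_3, against 21.0% of all detected genes. By that count, 5 (10.6%) lay at least 1.5 below the other arrays on s50_3, against 7.10%, and 3 (6.38%) as far above them on s50_1, against 4.67%. The shares are over Xl-PSIDs or genes of the same 3 pools. Xl-PSIDs and genes are not replicates, and no test was made of the shares.

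**Figure D5:**
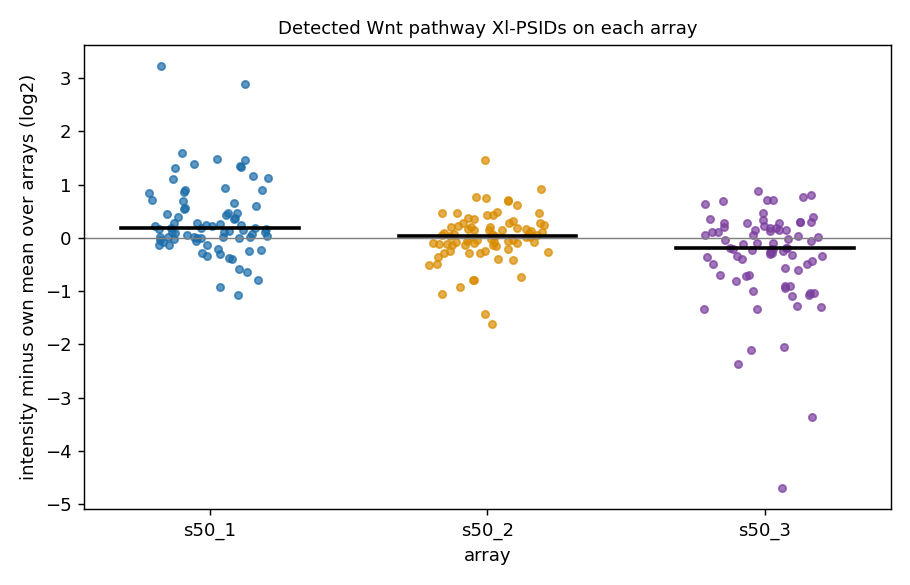
Intensity minus the Xl-PSID's own mean over the arrays (log2, vertical axis) for the 79 detected Wnt pathway Xl-PSIDs on each array, with horizontal bars at the medians. The medians fall across the panel (0.18, 0.03 and -0.20), and the lowest points are *ctnnb1* and *fzd7* Xl-PSIDs on s50_3.

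The median difference of the detected members from their own mean was 0.18, 0.03 and -0.20 in the order of the arrays, against -0.06, 0.05 and 0.05 for all detected Xl-PSIDs with a symbol. Other lists moved with the arrays too. Detected regulators of otic epithelium had 0.37, 0.13 and -0.44, and neuronal genes 0.30, -0.05 and -0.28. The medians of the 4 hair cell genes ran the other way, with -0.27, -0.13 and 0.35, as did those of epidermal genes with -0.15, 0.04 and 0.21. Single genes departed from these medians. Among detected regulators of otic epithelium, *otx1* and *gata3* were higher on s50_3 than on s50_1, and the rest were lower. Among detected neuronal genes, *nefm*, *nefl*, *ntrk2* and *syt1* were higher on s50_3 than on s50_1, and the rest were lower. Of the hair cell genes, *ush1c*, *cib2* and *pvalb* rose from s50_1 to s50_3, while *myo6* had 12.85, 12.15 and 12.96. Of the epidermal genes, *krt19*, *krt70*, *ppl* and *evpl* were higher on s50_3 than on s50_1, while *perp* and *dsp* were lower. Skeletal muscle genes had -0.87, 0.37 and 0.40. Medians were smaller for supporting cell and otoconia genes (0.09, 0.05 and -0.09), cartilage genes (0.00, 0.01 and -0.01) and erythroid genes (-0.00, 0.20 and -0.05). The first of these lists includes *tubb3*, which had 12.87, 12.16 and 11.14. The pool of s50_3 was labelled from less RNA than the others. The gap between 3′ and 5′ controls of *gapdh* and the elongation factor was widest on s50_2, as given above. The paper states that all of its replicates reached a set minimum of the RNA integrity number. The part of tissue content, RNA amount and RNA integrity in the pattern of the Wnt genes was not tested.

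Pathway genes outside the name rule were described by 4 lists. Their counts are to be read beside the 80.6% of all genes that were detected. Of 26 measured genes known as targets of the pathway in some tissue, 17 were detected. The brightest were *id2*, an inhibitor of differentiation factors, with 12.96, 12.58 and 12.12, *sall1*, a zinc finger factor, with 12.30, 12.09 and 12.57, and *bambi*, a decoy receptor for TGF-β ligands, with 11.95, 12.26 and 11.58. s50_1 was the highest array for *id2* alone of these. The cell cycle gene *ccnd1* had 12.11, 11.71 and 11.16. Of the 9 targets not detected, *tbxt*, *cdx1*, *cdx2*, *cdx4*, *sall4*, *sp5l*, *en1* and *hesx1* lay between 1.85 and 2.04 as means, and *en2* had 4.58, 2.01 and 1.99. The median difference of the detected targets from their own means was 0.41, 0.05 and -0.45 in the order of the arrays. It was 0.13, 0.08 and -0.10 for planar polarity and noncanonical genes, 0.17, -0.01 and -0.05 for extracellular modulators, and 0.10, -0.03 and 0.21 for cofactors of the destruction complex and nucleus, so the last of these lists was highest on s50_3. Among targets, *mycn*, a growth regulator, had 12.21, 11.10 and 6.60.

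Of 18 planar polarity and noncanonical genes, 16 were detected. *rhoa*, a regulator of actin, had 14.56, 14.50 and 14.68, *dact1*, a partner of Dishevelled, had 12.62, 12.85 and 12.40, and the calcium-dependent kinase gene *camk2d* had 12.54, 12.27 and 12.95. The membrane protein gene *vangl2*, which in mice orients hair bundles, had 11.47, 10.49 and 9.11. Its relative *vangl1* had 9.62, 10.32 and 11.20. They ran in opposite directions over the arrays. *celsr2* (1.95 ± 0.02) and *camk2a*, with 7.54 on s50_1 and 2.05 on the other arrays, were not detected.

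Of 22 cofactors of the destruction complex and of β-catenin in the nucleus, 19 were detected, led by *skp1* (13.21 ± 0.15) and *cul1* (11.82 ± 0.60) of the ubiquitin ligase and by *siah1*, a further ligase (11.81 ± 0.42). *cby1* (3.33 ± 0.66), *siah2* (1.95 ± 0.02) and *tnks2* (1.90 ± 0.02) were not detected. Of 13 extracellular modulators, 9 were detected, including the proteoglycan gene *bgn* (14.15 ± 0.06), the sulfatase gene *sulf2* (12.98 ± 0.51) and *atp6ap2*, which links LRP6 to the proton pump (12.98 ± 0.68). The Wnt deacylase gene *notum* had 5.12, 3.46 and 4.46. The antagonist genes *sostdc1* (2.22 ± 0.05) and *cer1* (2.08 ± 0.05), with *sdc1* (2.03 ± 0.04) and *musk* (1.95 ± 0.02), were at or near the floor.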

How the data were processed

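RNA from 3 pools of *s50* inner ears was amplified and made into labelled cDNA. This cDNA was hybridized to Affymetrix X. laevis Genome 2.0 arrays. Scans were summarized by the authors with GCRMA, as run in JMP Genomics, and the deposited values are a log2 intensity per Xl-PSID and array. Whether that run covered these arrays alone is not given in the sources used. Values were used as deposited. GCRMA subtracts a modelled background, which leaves low signals at a floor.

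Symbols came from the platform's annotation. A gene identifier in RefSeq matched 116 members and renamed 0, and 5 were not matched. The suffixes .L, .S, -a and -b were cut to join homeologs. Python 3.11.15, pandas 2.3.3 and numpy 2.4.6 were used, and the counting was tested on simulated data. These had less noise than the arrays, so they checked the arithmetic only. The members, roles and lists were chosen with earlier results of these data known. Any member could be named. The rule asked for values on each array for the 5 brightest genes of a role, those with means of 3 to 5, the 10 widest ranges, genes with disagreeing Xl-PSIDs and, in other lists, the 3 brightest, with undetected genes by name. Some of these are given by their means, and further members by values or means. *vangl1*, *vangl2*, *mycn* and *ccnd1* were chosen after their values were seen.

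Alternatives were other thresholds (3, 5, or 4 reached by each array), a median over arrays, quantile normalization, Xl-PSIDs specific to a transcript, averaging the Xl-PSIDs per gene, homeologs apart, ranges of 1 and 2, a narrower name rule and leaving out each array.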

Additional observations from a re-analysis of the deposited data

How the results depend on the processing

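Of 185 values computed for 19 results under the alternatives, 173 lay within 1.5 times the value given or, for the median level, within 1 SD of its medians over the arrays. The median level takes in all members, so the other thresholds could not change it. The limit of 1.5 times is wide. It takes in a fall from 12 to 8 members high on s50_1, with at least 4 on every array. It also takes in a rise from 47 to 61 detected genes with homeologs apart. The R-spondin axis had 1 detected gene with a threshold of 5 or with at least 4 on every array, as *znrf3* was lost. The median level of the members was 8.19 with Xl-PSIDs shared by several transcripts left out and 6.79 without the *csnk1*, *tle* and other *ctnnb* names, and lay between 7.70 and 8.15 with an array left out. The number of variable members was 16 at a range of at least 2, and between 12 and 21 with an array left out. With the brightest Xl-PSID of each gene, a choice made after seeing the data, 11 of 47 were variable (23.40%, against 21.98% of all detected). By that count, 5 were low on s50_3, 3 were high on s50_1 and 16 had both extremes there. Genes with Xl-PSIDs on both sides of the threshold could not be counted with a mean per gene. Precision rests on 3 pools, and a value at the floor is an upper bound only. No paired analysis was possible because all arrays belong to a single group.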
